A study of Mus musculus with 9 samples.

Results

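Cytokine receptor chains are the transmembrane subunits through which T cells sense interleukins and interferon gamma. The set examined here holds 10 of the 46078 genes in the deposited count table, picked by gene symbol: Il7r, Il2rg, Il2rb, Il4ra, Il21r, Il6ra, Il6st, Il18r1, Il10ra and Ifngr1. All 10 were found and all 10 passed the filter on low counts. RNA 3′ ends were sequenced in 6 samples of T cell lymphoma cells induced by MYCN, a transcription factor of the MYC family, and in 3 samples of CD4+ T cells. The lymphoma cells were taken from thymus and the controls from spleen of C57BL/6J mice. The groups are called lymphoma (34, 53, 56, 70, 72 and 86) and CD4 (1, 2 and 3), after the numbers in the labels. Ages, treatments, the promoter that drives MYCN and any sorting step are not given in the sources used here, nor is it stated that each lymphoma is a separate tumour or each CD4 sample a separate animal. The p-values therefore measure the spread between these samples, which may be partly technical.

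Most of these receptors work by assembly of shared and private chains. Il2rg encodes the common gamma chain, which pairs with Il7r for IL-7, with Il2rb for IL-2 and IL-15, with Il4ra for IL-4 and with Il21r for IL-21. Il6st encodes gp130, the signalling chain shared by the IL-6 family, and Il6ra the private chain that binds IL-6. Il10ra and Ifngr1 bind IL-10 and interferon gamma, and Il18r1 belongs to the IL-1 receptor family. All but Il18r1 signal through JAK kinases and STAT factors, while Il18r1 signals through MyD88. IL-7 sustains naive T cells and early thymocytes, and IL-6 and IL-21 act on helper T cells.

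The groups differ by tissue and by sex as well as by disease, which cannot be told apart here. Their levels of markers of other cell types differed too. Reads in genes numbered 11170704 to 15769679 per lymphoma library and 8099960 to 10808828 per CD4 library. Levels are in CPM: a gene's counts per 1000000 counts, after scaling the libraries by TMM. The pan-T gene Cd3e stood at 150 to 217 CPM in lymphoma and 138 to 192 CPM in CD4, so both groups carried T cell RNA. Cd4 stood at 199 to 263 CPM in CD4 and 6.04 to 71.9 CPM in lymphoma, and Cd8a at 25.6 to 31.8 CPM in CD4, 29.4 CPM in lymphoma 53 and at most 1.53 CPM in the other lymphomas. All 15 listed B cell markers were lower in lymphoma by edgeR, and their summed level was 3199 to 3781 CPM in CD4 and 269 to 452 CPM in lymphoma. The NK cell marker Ncr1 had 74 to 98 counts in CD4 and 0 in each lymphoma. The summed level of 10 NK cell markers was nevertheless higher in lymphoma (336 to 817 CPM against 242 to 260 CPM in CD4), since it is carried by Gzma at 298 to 785 CPM in lymphoma. By edgeR 7 of these markers were lower and 1 higher, and without Gzma the sum was at most 64.2 CPM in lymphoma and at least 179 CPM in CD4. Of 15 myeloid markers 8 were lower and 0 higher by edgeR, among them Ctss (14.0-fold) and Itgax (19.5-fold), while Lyz2, at 70.7 to 94.0 CPM in CD4 and 13.7 to 75.8 CPM in lymphoma, did not pass (adjusted p 0.142). Their summed level was 1073 to 1341 CPM in CD4 and 99.7 to 2245 CPM in lymphoma, where S100a8 and S100a9 reached 1035 and 989 CPM in lymphoma 56. Without those neutrophil genes the sum was 89.2 to 226 CPM in lymphoma and 713 to 1063 CPM in CD4. Of the 7 regulatory T cell markers, 6 were lower in lymphoma by edgeR. Their summed level was 462 to 590 CPM in CD4 and 98.7 to 381 CPM in lymphoma. The 15 stromal and thymic epithelial markers summed to 104 to 206 CPM in lymphoma and 230 to 255 CPM in CD4, with Lum at 0 in all 9 libraries. Of the 8 tested, Dcn and Epcam were higher and Pecam1 lower in lymphoma by edgeR. Without Pecam1, an endothelial and leukocyte gene, the sums overlapped, at 44.7 to 124 CPM in lymphoma and 43.1 to 56.8 CPM in CD4. The sums without single genes were chosen after seeing the data. B cells, NK cells and myeloid cells carry several of these receptors too, and the part of these cells in the results below was not tested. In bulk samples, fewer cells of a type and less RNA per cell cannot be told apart.

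Of the 10 chains, 7 were lower and 1 was higher in lymphoma than in CD4 at an adjusted p under 0.05 (edgeR's quasi-likelihood test, Benjamini-Hochberg adjustment over 15401 tested genes). The same test called 46.6% of all tested genes, 21.9% as lower and 24.7% as higher. The 7 that fell were Il18r1, Il6ra, Il7r, Il10ra, Il4ra, Il21r and Il2rg, and Il6st rose. Their fitted folds ran from 2.56 for Il2rg to 118 for Il18r1. All 7 also passed with a change of at least 2-fold, as did 17.2% of tested genes in that direction. Every lymphoma lay below every CD4 library for these 7 genes, as for 22.3% of tested genes, and above every CD4 library for Il6st, as for 22.6%. Groups were apart in either direction for 44.9% of tested genes. The median log2 fold change over the 10 chains was -2.08, beside 0.04 over all tested genes. The chains, and the gene lists used further below, were chosen with earlier results of these data known. With RLE, upper quartile or library size scaling, Il6st lost its call and Il2rb gained one, so that 8 chains were lower and 0 higher. All 7 falls kept their call under each of the 20 alternatives run, from another scaling to leaving out any 1 library.

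**Figure D1:**
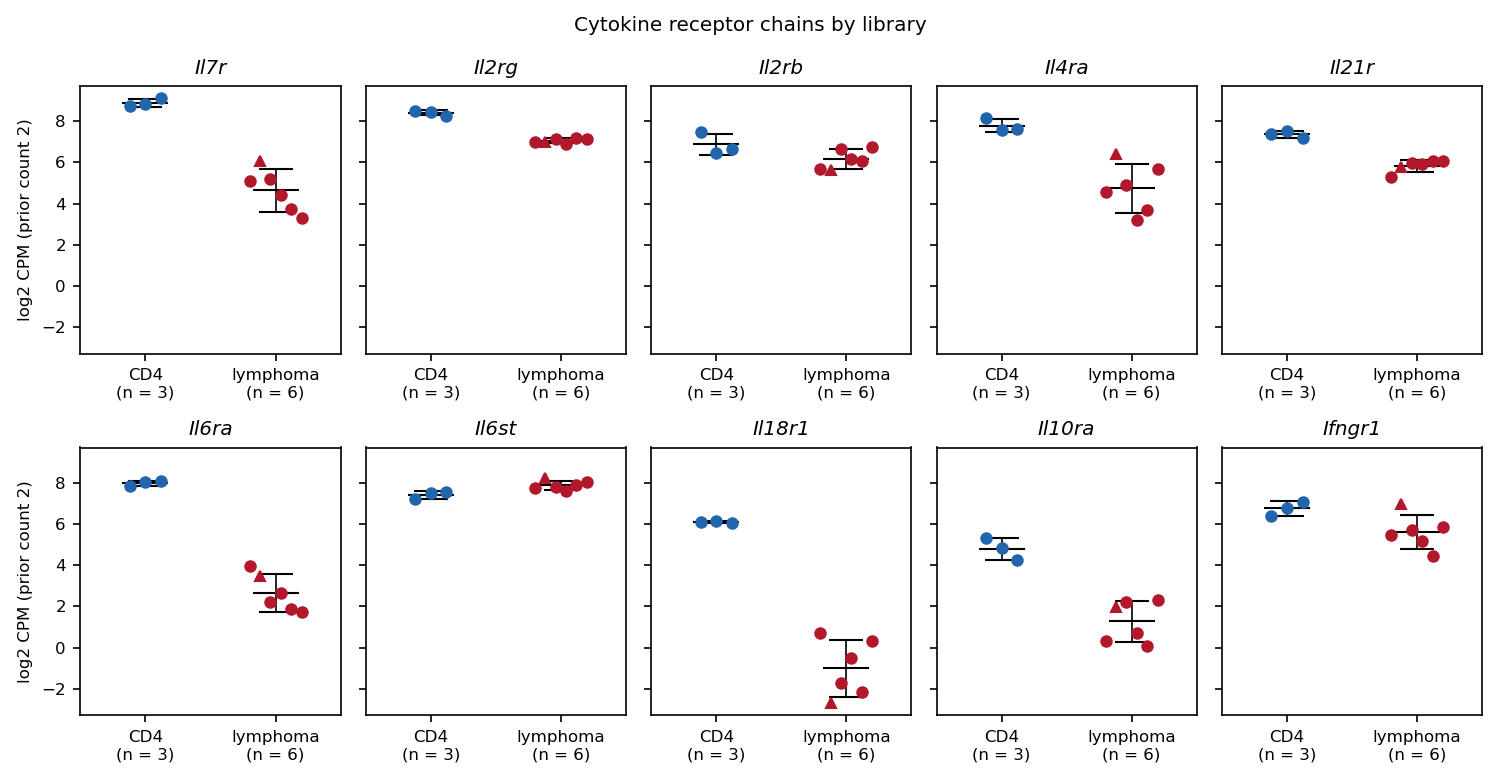
Level of each receptor chain in each library, on a log2 CPM scale with a prior count of 2. Points are libraries (triangle: lymphoma 53), and bars give the mean and SD of 3 CD4 and 6 lymphoma libraries. The groups are apart for 8 chains and overlap for Il2rb and Ifngr1.

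The 2 chains of the IL-6 receptor moved in opposite directions, and their promoters are shown for that reason. Promoter sequences were taken from the RefSeq table of build GRCm38.p6, which held entries for 8 of the 10 genes. The 250 bases before the start given in that table are printed 5′ to 3′ on the gene's strand. The table's starts for Il7r and for the Il18r1 window with matches lie inside the gene bodies annotated by GENCODE, and those windows overlap exons of the same gene by 86 and 91 bases, though the printed Il7r stretch overlaps none. Capitals mark a match, on either strand, to CACGTG, the E-box bound by MYC proteins, to TTCNNNGAA, the core that STAT dimers bind, to CCGGAAGT, an ETS element, or to GTAAACA, a forkhead element. For Il7r only 30 bases around its single match are given.
Il6ra (chr3:89913197-89913446, minus strand): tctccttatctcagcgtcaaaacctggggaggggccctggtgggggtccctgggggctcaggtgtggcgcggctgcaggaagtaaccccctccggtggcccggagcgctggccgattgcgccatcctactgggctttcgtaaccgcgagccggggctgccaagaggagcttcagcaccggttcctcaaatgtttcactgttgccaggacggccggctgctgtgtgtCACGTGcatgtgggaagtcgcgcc
Il6st (chr13:112463820-112464069, plus strand): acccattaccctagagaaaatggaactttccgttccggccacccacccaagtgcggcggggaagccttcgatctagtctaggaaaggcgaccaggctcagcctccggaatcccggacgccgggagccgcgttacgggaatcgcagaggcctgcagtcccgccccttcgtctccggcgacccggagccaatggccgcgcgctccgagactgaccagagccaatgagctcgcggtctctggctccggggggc
Il7r (chr15:9529999-9530028, minus strand): gttcaggagcTTCAGGGAAtaccaagatgc
Both IL-6 receptor promoters are GC-rich, at 65.2% for Il6ra and 66% for Il6st against a median of 52.4% over 32851 promoter entries. The Il6ra window held CACGTG at 24 to 19 bases before the start. That motif was found in 6.02% of all windows and in 1 of the 10 windows of these 8 genes. In the annotation, the whole Il6ra window also lies in an exon of Gm42809, a gene on the opposite strand. TTCNNNGAA was found for Il7r and for 1 of 3 Il18r1 starts. It was thus in 2 of 8 genes and 2 of their 10 windows, and in 7.02% of all windows. GTAAACA was found for Il21r alone (3.17% of all windows) and CCGGAAGT for none (2.88%). A match describes these letters only.

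Il6ra (ENSMUSG00000027947, chromosome 3, 89864059 to 89913196, minus strand, GRCm38) stood at 225, 261 and 267 CPM in CD4 1, 2 and 3. In lymphoma it ranged from 3.10 CPM in lymphoma 86 over a median of 5.35 to 15.5 CPM in lymphoma 34. The groups did not come near each other. The log2 fold change was -5.11 (SE 0.466, edgeR adjusted p 1.21e-05), a fitted 34.4-fold fall, and all 6 lymphomas lay below all CD4 libraries.

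Il6st (ENSMUSG00000021756, chromosome 13, 112464070 to 112510086, plus strand) had 146, 182 and 186 CPM in CD4. The lymphomas had 193 CPM (lymphoma 70) to 300 CPM (lymphoma 53), with a median of 226 CPM. Every lymphoma was above every CD4 library, though lymphoma 70 and CD4 3 lay close together. The rise of 0.46 on the log2 scale (SE 0.172) had an edgeR adjusted p of 0.0434. That call was lost in 12 of 20 alternatives, among them RLE and upper quartile scaling (adjusted p 0.071 and 0.0973), DESeq2 (0.0543) and leaving out CD4 1, 2 or 3 (0.127, 0.0742 and 0.0643). The direction held in all 20, between 0.36 and 0.56.

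Within a library the ratio of Il6ra reads to Il6st reads does not depend on scaling. It was 1.54, 1.44 and 1.44 in CD4 and 0.0120 to 0.0722 in lymphoma, with a median of 0.0264. The geometric mean ratio was 56.3-fold lower in lymphoma (exact two-sided permutation p = 0.0238 over 84 assignments, the smallest these groups allow, 0.0595 after Benjamini-Hochberg adjustment over 5 ratios). None of the 5 ratios passed 0.05 after adjustment. The highest lymphoma ratio, 0.0722 in lymphoma 34, was still far below the lowest CD4 ratio.

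Il7r (ENSMUSG00000003882, chromosome 15, 9505788 to 9530176, minus strand), the private chain for IL-7, had 428, 458 and 554 CPM in CD4. In lymphoma it was lowest in 86 (9.67 CPM), had a median of 27.7 and was highest in 53 (66.9 CPM). The highest lymphoma was thus far under the lowest CD4 library. Il7r fell 15.8-fold, a log2 change of -3.99 (edgeR adjusted p 0.000131, SE 0.506). Among the lymphomas Il7r varied with a coefficient of variation of 69.3%, against 13.7% in CD4.

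Il2rg (ENSMUSG00000031304, chromosome X, 101264378 to 101268255, minus strand), the common gamma chain, had 360, 353 and 306 CPM in CD4. The lymphomas lay close together, from 117 CPM in lymphoma 70 to 143 CPM in lymphoma 72 with a median of 135. Its coefficient of variation among lymphomas, 7.91%, was the smallest of the 10 chains. Il2rg fell by 1.35 on the log2 scale (SE 0.133, edgeR adjusted p 1.03e-05), which is 2.56-fold. The annotation places exons of the gene Gm20489 over those of Il2rg on the same strand, and how reads in both genes were counted is not given in the sources used here.

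Il21r (ENSMUSG00000030745, chromosome 7, 125603429 to 125633570, plus strand), the private chain for IL-21, had 164, 181 and 147 CPM in CD4. Lymphoma 34 had the least (38.4 CPM) and lymphoma 72 the most (66.6 CPM), around a median of 61.6. The groups did not overlap. The log2 fold change was -1.50 (SE 0.182, edgeR adjusted p 4.56e-05). Its size was close to that of Il2rg, and the Il21r to Il2rg read ratio was 0.304 to 0.525 in lymphoma and 0.458 to 0.514 in CD4, with overlap and no detected difference (exact two-sided permutation p = 0.310, 0.310 adjusted).

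Il4ra (ENSMUSG00000030748, chromosome 7, 125552120 to 125579474, plus strand), the IL-4 and IL-13 chain, had 281, 187 and 197 CPM in CD4. Among lymphomas its coefficient of variation, 80.8%, was second to that of Il18r1, with values from 8.94 CPM in lymphoma 70 over a median of 26.4 to 83.7 CPM in lymphoma 53. Lymphomas 53 (83.7 CPM) and 86 (51.8 CPM) were high, and 70 and 72 (12.7 CPM) low. The log2 fold change was -2.67 (SE 0.590, edgeR adjusted p 0.00439), and -3.14 without lymphoma 53. Il4ra and Il6ra each overlap an exon of a gene on the opposite strand in the annotation, and the strand setting of the counts is not given in the sources used here.

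Il2rb (ENSMUSG00000068227, chromosome 15, 78479256 to 78495271, minus strand), the IL-2 and IL-15 chain, had 177, 88.9 and 102 CPM in CD4. In lymphoma it ran from 49.4 CPM (lymphoma 53) over a median of 68.6 to 108 CPM (lymphoma 86), so the groups overlapped. The change of -0.72 on the log2 scale (SE 0.291) missed the threshold at an edgeR adjusted p of 0.0621. It was past it in 6 of 20 alternatives, among them DESeq2 (0.0319), while without CD4 1 the change was -0.34 (edgeR adjusted p 0.395). Of the 7 regulatory T cell markers, 4 were highest in CD4 1 as well, among them Foxp3 at 68.6 CPM beside 26.2 and 27.4 CPM in CD4 2 and 3. Ctla4 and Tnfrsf4 were highest in CD4 3 and Gpr83 in CD4 2, and the part of these cells in the Il2rb level was not tested.

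**Figure D2:**
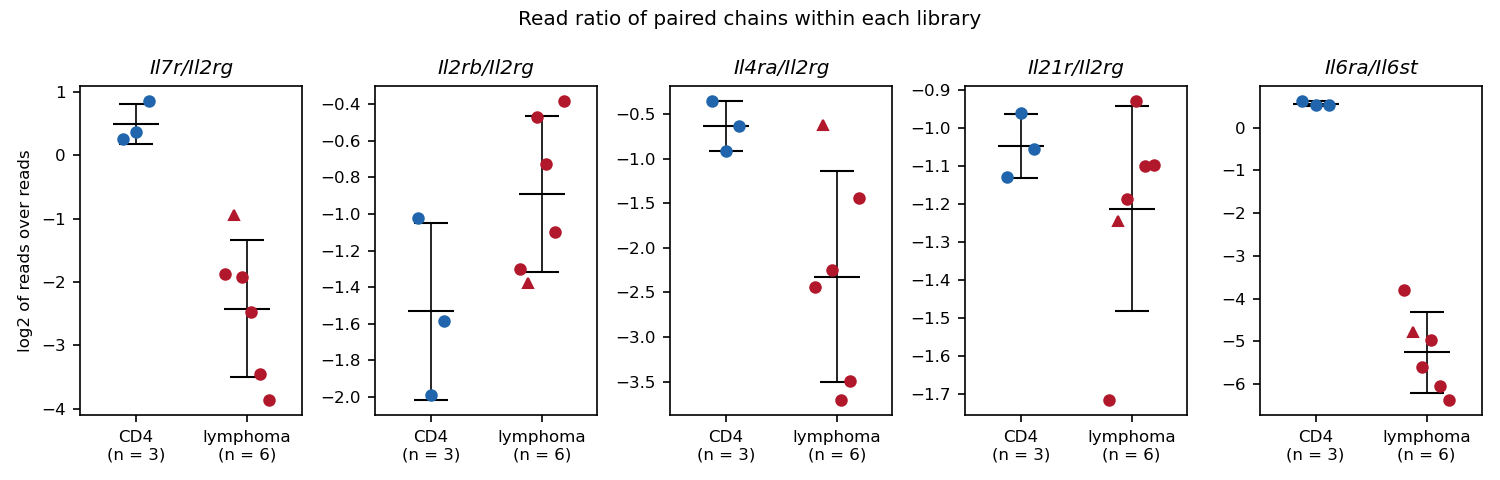
Log2 of the read ratio of 2 partner chains within each library, for 4 pairs with the common gamma chain Il2rg and for Il6ra over Il6st. Points are libraries (triangle: lymphoma 53), bars give mean and SD, and each panel has its own scale. The groups are apart for Il7r/Il2rg and Il6ra/Il6st and overlap for the other pairs.

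Set against Il2rg in the same library, the gamma chain partners gave different ratios, none of which passed 0.05 after adjustment. The Il7r to Il2rg read ratio was 1.19, 1.30 and 1.81 in CD4 and 0.0687 to 0.521 in lymphoma, a 7.55-fold lower geometric mean (exact two-sided permutation p = 0.0238, 0.0595 adjusted over 5 ratios). The Il4ra to Il2rg ratio was 0.782, 0.531 and 0.645 in CD4 and 0.0766 to 0.652 in lymphoma. Lymphoma 53 lay within the CD4 range, and the 3.23-fold lower mean had an exact permutation p of 0.0714 (0.119 adjusted). For Il2rb to Il2rg the ratio ran the other way, at 0.385 to 0.767 in lymphoma and 0.492, 0.252 and 0.333 in CD4, with an exact permutation p of 0.119 (0.149 adjusted). Raw ratios compare groups only, since reads per molecule differ between genes.

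Il18r1 (ENSMUSG00000026070, chromosome 1, 40465552 to 40500854, plus strand), the ligand-binding chain for IL-18, had 68.8, 69.7 and 65.9 CPM in CD4, the tightest CD4 values of the set. The lymphomas had 23, 0, 2, 9, 1 and 15 counts in libraries 34, 53, 56, 70, 72 and 86, at most 1.48 CPM. Lymphomas 53, 56 and 72 lay at or under the 3 counts that a count of 0 allows. The log2 fold change was -6.88 (SE 0.713, edgeR adjusted p 2.84e-05) and ranged from -7.72 to -6.64 over 20 alternatives. Its partner chain Il18rap had 18.5, 27.5 and 24.1 CPM in CD4 and 0.0654 to 8.51 CPM in lymphoma. Il18rap fell by 3.37 (SE 1.06, edgeR adjusted p 0.0253) and by 4.52 without lymphoma 34. Leaving out CD4 2 or CD4 3 raised its edgeR adjusted p to 0.0651 or 0.0596. IL-18 receptor genes are abundant in NK cells, whose marker Ncr1 moved the same way. Of the 10 listed NK cell markers, 7 were lower and 1 higher by edgeR, beside 21.9% and 24.7% of all tested genes. Gzma went the other way, at 298 to 785 CPM in lymphoma and 63.3 to 73.9 CPM in CD4. The part of NK cells was not tested.

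Il10ra (ENSMUSG00000032089, chromosome 9, 45253837 to 45269149, minus strand), the private chain for IL-10, had 39.1, 28.0 and 18.9 CPM in CD4. In lymphoma it was lowest in 72 (0.916 CPM), had a median of 2.61 and was highest in 86 (4.84 CPM). Lymphomas 53, 56 and 86 formed the upper values, all above 3.7 CPM, and 34, 70 and 72 the lower, all under 1.5 CPM. The log2 fold change was -3.38 (SE 0.517, edgeR adjusted p 0.000255). Its partner Il10rb, shared with other class II cytokines, fell by 1.72 (SE 0.223, edgeR adjusted p 7.46e-05).

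Ifngr1 (ENSMUSG00000020009, chromosome 10, 19591949 to 19610229, plus strand), the ligand-binding chain for interferon gamma, had 83.0, 111 and 135 CPM in CD4. It ranged from 21.5 CPM in lymphoma 72 over a median of 47.6 to 126 CPM in lymphoma 53, the one lymphoma within the CD4 range. The change of -0.97 on the log2 scale (SE 0.433) missed the threshold (edgeR adjusted p 0.0886). Without lymphoma 53 the change was -1.39 with an edgeR adjusted p of 0.00121, and all 5 remaining lymphomas lay below all CD4 libraries, at 41.9 ± 13.8 CPM (SD, n = 5). DESeq2 and limma voom called it on all libraries (adjusted p 0.0371 and 0.0274). Its partner Ifngr2 fell by 0.96 (SE 0.253, edgeR adjusted p 0.0082).

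**Figure D3:**
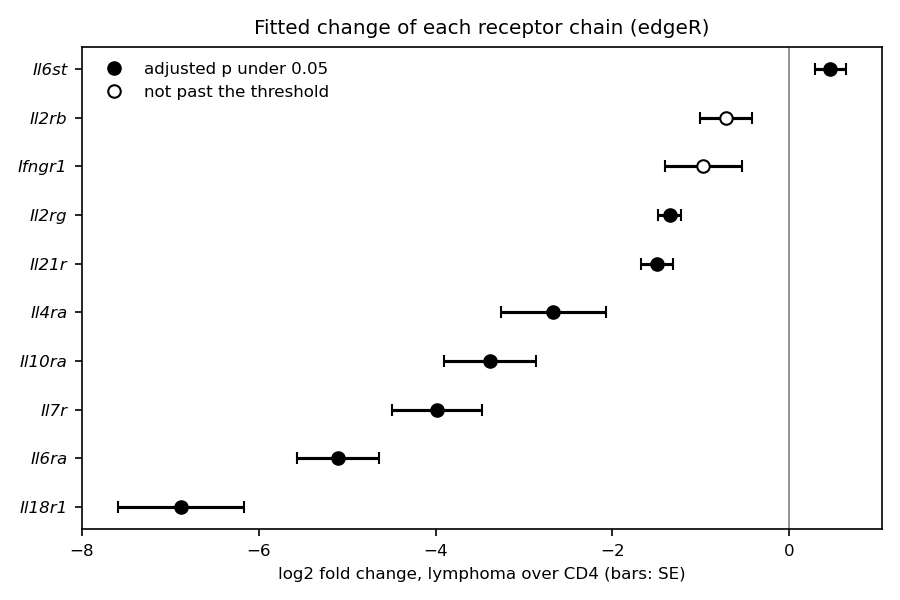
Fitted log2 fold change of each chain, lymphoma over CD4, with its standard error, from edgeR over 3 CD4 and 6 lymphoma libraries. Filled points passed an adjusted p of 0.05. Changes run from -6.88 for Il18r1 to 0.46 for Il6st.

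The chains did not vary together among the lymphomas. Lymphoma 53 held the highest value of 4 chains (Il7r, Il4ra, Il6st and Ifngr1) and the lowest of 2 (Il2rb and Il18r1). Lymphoma 86 held the highest of Il2rb and Il10ra and the lowest of Il7r and Il6ra, and lymphoma 34 the highest of Il6ra and Il18r1. Lymphoma 70 was lowest for Il2rg, Il4ra and Il6st. As a description over 6 lymphomas, Pearson r of log2 CPM was positive for every pair among Il4ra, Il6st, Il10ra and Ifngr1. It ran from 0.52 (Il6st and Il10ra) to 0.87 (Il4ra and Ifngr1), and was 0.76 between Il7r and Il6ra. It was -0.91 between Il6ra and Il21r and -0.82 between Il2rb and Il6ra. These pairs were named after their values were seen. The points of all pairs share the same 6 libraries.

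**Figure D4:**
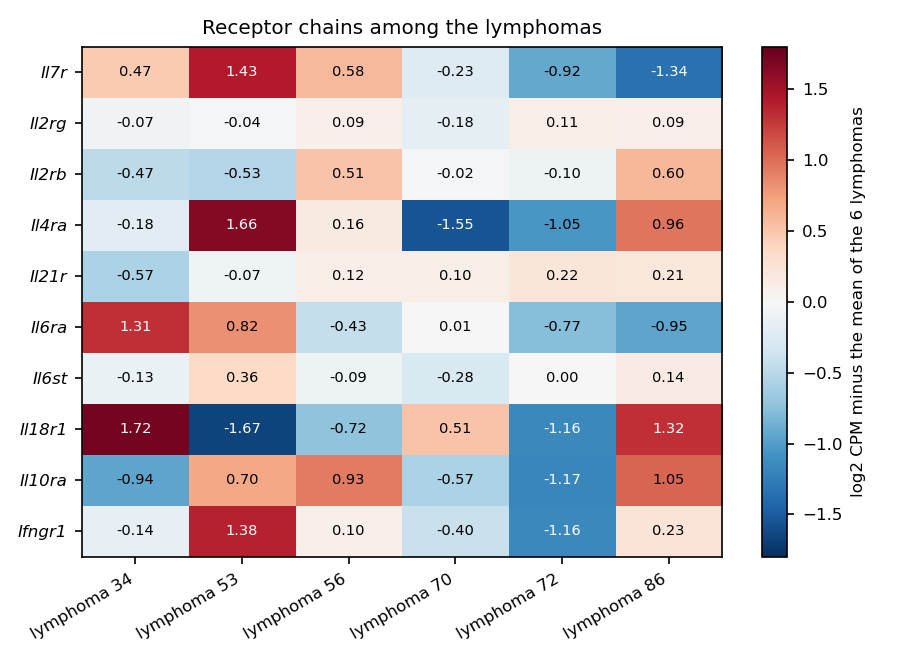
Log2 CPM of each chain in each lymphoma, minus the mean of the 6 lymphomas, printed in each cell. Lymphoma 53 is 1.43 above the mean for Il7r, 1.66 for Il4ra and 1.38 for Ifngr1, while Il2rg stays within 0.18 of its mean. Il18r1 values rest on at most 23 counts.

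The genes whose log2 CPM followed Il7r most closely over all 9 libraries, out of 9423 genes with an average log2 CPM of at least 3, were Carns1 (Pearson r 0.99), Rassf3 (0.99) and Tet2 (0.99). Since Il7r itself differs between the groups, this choice favours genes that differ too: the fitted log2 changes were -2.17, -2.52 and -1.43, given as a description. Over the 6 lymphomas alone the closest were Rps12-ps10 (r 0.99), Gm38126 (0.99) and Gm15501 (0.99). With 6 points and 9423 genes, values of this size are a description only.

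The rest of the receptor family moved in part with the set. Of 47 other listed receptor chains 35 were tested, and 15 were lower and 4 higher by edgeR (54.3% called, against 46.6% of all tested genes), with a median log2 fold change of -0.96. Il2ra, the high-affinity IL-2 chain, fell furthest: it had 55.1, 47.4 and 55.4 CPM in CD4 and at most 6 counts in any lymphoma (log2 fold change -7.92, SE 0.541, edgeR adjusted p 7.33e-07). Csf2rb2, a beta chain for IL-3 and a close copy of Csf2rb, fell by 3.46 (SE 0.535), and reads shared with that copy make its level uncertain. Ifnlr1, an interferon lambda chain, was higher by edgeR (adjusted p 0.0123) on at most 2.11 CPM in lymphoma and 0.0917 CPM in CD4. Among chains with an average log2 CPM of at least 2, the largest rises were Il17rb, a chain for IL-25, Il12rb1, shared by IL-12 and IL-23, and Il9r, a gamma chain partner. Il17rb had 7.82, 5.64 and 6.79 CPM in CD4 and 20.5 to 74.4 CPM in lymphoma, and rose by 2.97 (SE 0.415, edgeR adjusted p 0.000141). Il12rb1 rose by 2.39 (SE 0.362, edgeR adjusted p 0.000237). Il9r rose by 1.71 (SE 0.204, edgeR adjusted p 4.13e-05), with 13.7, 11.5 and 10.8 CPM in CD4 and 30.3 to 44.3 CPM in lymphoma. All 6 lymphomas were above all 3 CD4 libraries for each of these 3 genes, so among gamma chain partners Il9r was higher while Il7r, Il4ra, Il21r and Il2ra were lower.

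Few ligands were measurable. Of 16 ligands of these receptors 8 were tested. By edgeR 5 were lower and 0 higher, beside 21.9% and 24.7% of all tested genes. Il18 fell by 3.16 (SE 0.646, edgeR adjusted p 0.00181) and Osm, which signals through gp130, by 1.04 (SE 0.302, edgeR adjusted p 0.0143). Without CD4 1 the count was 3, and Osm missed the threshold (edgeR adjusted p 0.0795). Il7 had at most 11 counts in any library and was not tested.

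The kinases, STAT factors and feedback inhibitors that these chains use differed among themselves. Among 19 JAK, STAT and SOCS genes 11 were lower and 2 higher by edgeR, beside 21.9% and 24.7% of all tested genes. Their median log2 fold change was -0.92. Jak1, which binds the chains encoded by Il7r, Il2rb, Il4ra and Il21r, fell by 0.92 (SE 0.176, edgeR adjusted p 0.00121). Jak3, which binds the common gamma chain, fell by 0.97 (SE 0.264, edgeR adjusted p 0.0104, and 0.0659 without CD4 2). Tyk2 had 41.1, 47.2 and 49.6 CPM in CD4 and 25.1 to 116 CPM in lymphoma, on both sides of CD4, and did not pass (edgeR adjusted p 0.485). The main STAT factors of the gamma chain and IL-4 receptors did not pass: Stat5a had 51.1 to 75.9 CPM in lymphoma and 57.4 to 74.3 CPM in CD4 (edgeR adjusted p 0.866). Stat5b had 60.6 to 165 CPM in lymphoma and 74.8 to 106 CPM in CD4 (edgeR adjusted p 0.16), and Stat6 33.5 to 59.2 CPM and 62.8 to 67.3 CPM (edgeR adjusted p 0.0548). Stat3, the main factor of the IL-6, IL-10 and IL-21 receptors, fell by 1.82 (SE 0.203, edgeR adjusted p 2.50e-05). These 4 STAT genes were named after their values were seen. The feedback inhibitors Cish and Socs3, which are themselves induced by cytokine signals, fell by 5.47 (SE 0.698) and 5.38 (SE 0.567), with edgeR adjusted p of 6.73e-05 and 2.37e-05. Cish stood at -6.09 without lymphoma 70. Stat4, the IL-12 factor, fell by 4.76 (SE 1.19, edgeR adjusted p 0.0106) and by 7.12 without lymphoma 53, which had 21.1 CPM beside at most 1.01 CPM in the other lymphomas. Socs6 rose by 1.03 (SE 0.269, edgeR adjusted p 0.00807) and Socs7 by 0.95 (SE 0.217, edgeR adjusted p 0.00372).

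Genes listed as induced through cytokine receptors were mostly lower, in a list chosen with earlier results of these data known. Of 13, 10 were lower and 1 higher by edgeR, beside 21.9% and 24.7% of all tested genes. Their median log2 fold change was -1.92. Bcl2, the survival gene maintained by IL-7, had 464, 526 and 454 CPM in CD4 and 4.66 to 70.3 CPM in lymphoma (log2 fold change -3.97, SE 0.650, edgeR adjusted p 0.000842). Bcl2 was lowest in lymphoma 53, which had the most Il7r among the lymphomas. The costimulatory receptor Icos fell by 6.76 (SE 0.528, edgeR adjusted p 4.29e-06) and Prdm1, which encodes Blimp-1, by 4.98 (SE 0.903, edgeR adjusted p 0.0011) and by 5.80 without lymphoma 86. Gata3 was the 1 higher gene, at 0.93 (SE 0.339, edgeR adjusted p 0.0415), but the groups overlapped and 15 of 20 alternatives did not call it.

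**Figure D5:**
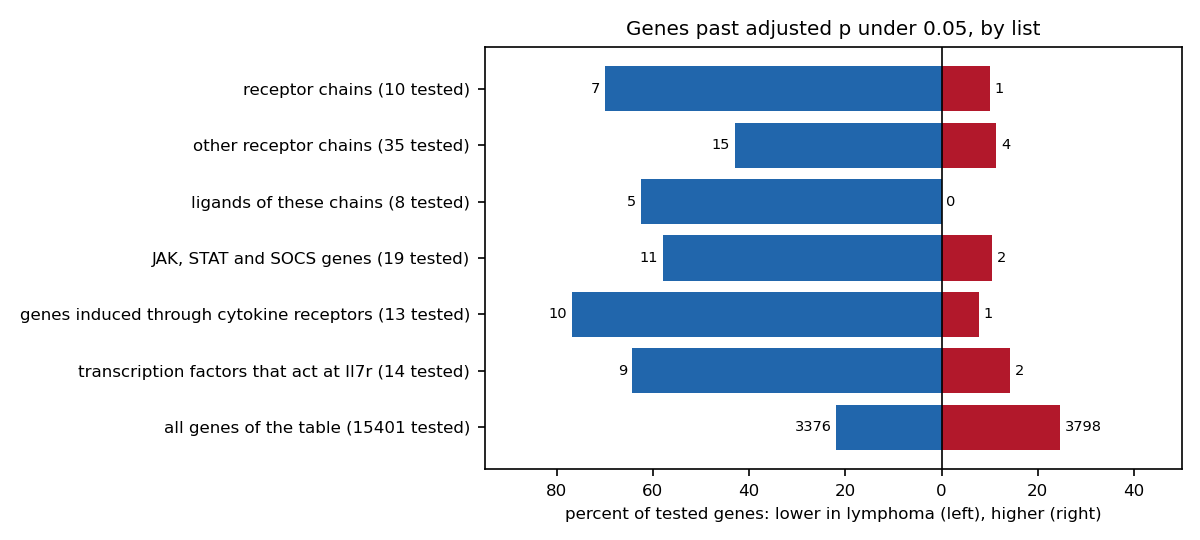
Percent of tested genes in each list that were lower (left, blue) or higher (right, red) in lymphoma at an edgeR adjusted p under 0.05, with the number of genes at each bar. All 15401 tested genes stand at the bottom for comparison, with 21.9% lower and 24.7% higher.

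Transcription factors known to act at the Il7r gene were examined last. Of 14, 9 were lower and 2 higher by edgeR, beside 21.9% and 24.7% of all tested genes. Their median log2 fold change was -1.05. Foxo1, an activator of Il7r in naive T cells, had 440, 387 and 418 CPM in CD4, 28.4 to 43.1 CPM in 5 lymphomas and 167 CPM in lymphoma 53. Its log2 fold change was -2.88 (SE 0.542, edgeR adjusted p 0.00168), and -3.60 without lymphoma 53. Gfi1, a repressor of Il7r, moved the other way, with 24.1, 10.3 and 17.8 CPM in CD4 and a median of 320 CPM in lymphoma, up to 662 CPM in lymphoma 72. It rose by 4.36 on the log2 scale (SE 0.797, edgeR adjusted p 0.00155). Among the lymphomas, 53 was the highest in Il7r and the lowest in Gfi1, at 48.2 CPM. Bach2 fell by 5.35 (SE 0.339, edgeR adjusted p 5.47e-07), and Klf2 by 4.57 (SE 0.882, edgeR adjusted p 0.00282) and by 5.47 without lymphoma 53. Tcf7 rose by 0.90 (SE 0.175, edgeR adjusted p 0.0013). Whether any of these factors sets the level of Il7r was not tested.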

How the data were processed

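The authors deposited a table of raw read counts per Ensembl gene for 9 libraries. FastQC, HISAT2, SAMtools and HTSeq with builds mm10 and GRCm38 are named in the submitters' processing notes, without versions or settings. The 5 summary rows, which hold reads not counted to a single gene, were kept out. They made up 50.9 to 61.3% of reads in every lymphoma library and 65.0 to 72.2% in every CD4 library. This share moves with the groups, and its part in the results was not tested. Genes were kept by filterByExpr (minimum count 10), scaled by TMM and tested with edgeR 4.0.16 in R 4.3.3 (glmQLFit robust, glmQLFTest, all 9 libraries, no covariate), with Benjamini-Hochberg adjustment over 15401 genes and a threshold of 0.05. Standard errors are the absolute log2 fold change over the square root of F. Counts were simulated for these 15401 genes, of which 200 were changed. Of the changed genes that passed the filter again, the fit recovered 61.1% of 90 4-fold and 19.8% of 91 2-fold changes. It called 0.0617% of unchanged genes. In the data 46.6% of tested genes were called. These shares depend on how many genes change, so they do not carry over to the data.

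Each count is a read without a molecular identifier, and a count of 0 allows up to 3 counts, 0.190 to 0.370 per 1000000 gene counts. This covers counting error only. Read ratios were tested by exact permutation of group labels. Gene positions are from GENCODE M21 (GRCm38), where all 10 chains matched by ID.

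The chains and the gene lists were chosen with earlier results of these data known. Besides the 10 chains, named genes are up to the 3 largest rises and 3 largest falls of each pathway list among genes past the threshold with an average log2 CPM of at least 2, some partner chains and kinases (Il2ra, Il18rap, Il10rb, Ifngr2, Jak1, Jak3 and Tyk2), and the genes most like Il7r. For Icos, Cd28 and Ctla4, which have 2 rows each, the row with reads was used. DESeq2 1.42.0, limma voom (limma 3.58.1), other scalings, filters and thresholds, leaving out each library and summing lymphomas 34, 70 and 72 served as alternatives.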

Additional observations from a re-analysis of the deposited data

Results flagged for a closer look

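Among the 6 lymphomas, 48 values were examined for a library whose gap to its neighbour exceeded 0.625 of the range (Dixon's 95% value). For independent, normally distributed values about 1 in 20 would do so by chance, or 2.4, and 6 did. These values are CPM from the same 6 libraries, so 2.4 is only a rough guide. Lymphoma 53 was the library in 5 of them. It was highest for Ifngr1 at 125.8 CPM (next 56.5), for Stat4 at 21.1 CPM (next 1.01), for Klf2 at 104.7 CPM (next 30.8) and for Foxo1 at 166.9 CPM (next 43.1), and lowest for Socs6 at 14.3 CPM (next 27.9). Lymphoma 34 was highest for Il18rap at 8.51 CPM (next 3.13).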

How the results depend on the processing

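The number of receptor chains past the threshold was 7 to 9 over the 20 alternatives, beside 8. All 200 fold changes of the chains kept their sign: 179 kept their side of the threshold, 12 (all Il6st) lost the call and 9 (Il2rb and Ifngr1) gained it. Of 660 values for the other named genes, 631 kept their side and 29 lost the call. The number of all tested genes called ran from 4915 at an adjusted p under 0.01 to 8137 without lymphoma 53. The split of higher and lower calls was 3798 and 3376 with TMM, and 3582 and 3577 with RLE, 3414 and 3707 with upper quartile. The median over tested genes was 0.04, -0.06 with upper quartile scaling and 0.20 without a filter. The number of ligands called, 5, was 2 at an adjusted p under 0.01, and 3 to 5 when 1 library was left out. The signs of all 5 read ratios held when 1 library was left out or lymphomas 34, 70 and 72 were summed, alternatives chosen after seeing the data. No paired analysis was possible because the groups share no replicate numbers. Depth limits Il18r1, Il2ra, Cish and the ligands in lymphoma, where libraries hold few or 0 counts.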

Other observations

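Lymphoma 53 also stood apart from the other lymphomas in lineage genes that are no part of the receptor set. These genes were named after their values were seen. It had 29.4 CPM of Cd8a and 47.6 CPM of Cd8b1, the chains of the CD8 coreceptor, where the other lymphomas had at most 1.53 and 0.735 CPM. Eomes, a T-box factor of memory and innate-like T cells, stood at 18.0 CPM in lymphoma 53 and at most 0.291 CPM in the others. For these 3 genes lymphoma 53 lay close to the CD4 libraries. Those had 25.6 to 31.8 CPM of Cd8a, 35.9 to 44.9 CPM of Cd8b1 and 21.7 to 25.9 CPM of Eomes. Gzma, a granule protease, was high in every lymphoma, at 298 to 785 CPM beside 63.3 to 73.9 CPM in CD4 (log2 fold change 2.93, SE 0.288), while Gzmb had 0 counts in all 6 lymphomas and at most 35 in CD4.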
